A study of Mus musculus with 4 samples.

Results

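The genes described here encode the Janus kinases and the STAT transcription factors, measured in Thy1+ LSK cells of mouse bone marrow. The set named 9 genes, the kinases Jak1, Jak2, Jak3 and Tyk2 and the factors Stat2, Stat3, Stat5a, Stat5b and Stat6. A gene entered when a row of the deposited table carried its symbol and no other. Of the 9 genes, 8 had such a row, out of 22180 genes in all, and each of the 8 had 1 row, so no choice between rows was needed. The only row listing Jak3 carries 2 gene symbols, so it cannot be assigned to Jak3 and no value is given for that gene.

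Thy1+ LSK cells are lineage-negative, carry Sca-1 and Kit, and hold many of the haematopoietic stem cells of the marrow. The study hybridised whole-transcript arrays with RNA of 2 Nol3-/- MPN samples and 2 Nol3+/+ samples, all on the C57BL/6 background, uncultured, untreated and taken from mice aged 11 to 18 months. Nol3 encodes an inhibitor of cell death, and MPN is read here as myeloproliferative neoplasm, which the sample labels attach to the Nol3-/- group. The labels do not say how the Nol3 allele was made, which sex the animals had, or how many animals gave the RNA of an array, so p-values measure the spread between these arrays, which may be partly technical.

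JAK kinases sit on the inner tails of cytokine receptors. When a cytokine binds, they phosphorylate the receptor and then STAT proteins, which pair up, enter the nucleus and switch on target genes. Jak2 serves the erythropoietin receptor, among others, and is the kinase most often mutated in human myeloproliferative neoplasms, with Stat5a and Stat5b as its main factors in blood stem and progenitor cells. The arrays measured transcripts of these genes. They did not measure the phosphorylation that turns the proteins on.

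No JAK or STAT gene passed the test for a difference between Nol3-/- MPN and Nol3+/+ cells. By limma's moderated test, 0 of the 8 passed an adjusted p of 0.05, against 0.024% of all 16635 genes tested, and 0 of the 8 reached an unadjusted p under 0.05, against 5.8% of all genes tested. Differences are given as Nol3-/- MPN minus Nol3+/+ in log2 units throughout. They lay between -0.13 for Stat2 and 0.41 for Stat5a, with 5 genes higher and 3 lower in Nol3-/- MPN. The median absolute difference of the 8 was 0.11, against 0.15 over all genes tested. With 2 arrays per group a two-sided exact permutation test of a single gene cannot give a p under 0.333, so only the fit across all genes was used.

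The 4 arrays had medians between 5.35 and 5.39 log2 units. Nol3+/+ replicate 1 stood apart, with correlations across genes of 0.899 to 0.911 with the other arrays, whereas the other 3 arrays correlated with each other at 0.929 to 0.949. Xist, the RNA that coats an inactive X chromosome, read 10.9 and 10.7 in Nol3-/- MPN against 5.43 and 5.28 in Nol3+/+, so genotype, the disease label and this sex-linked signal divide the arrays in the same way and cannot be told apart. Nol3 itself read 5.38 and 5.50 in Nol3-/- MPN against 5.31 and 5.52 in Nol3+/+. The labels do not place the deletion against the probes, and this row therefore checks nothing. The sort gene Kit, a receptor tyrosine kinase, read 8.38 and 7.39 in Nol3-/- MPN against 8.07 and 8.10 in Nol3+/+, and Thy1 read 4.64 and 5.24 in Nol3-/- MPN against 4.74 and 5.02 in Nol3+/+. Cd48, a progenitor surface gene that the labels do not name as sorted on, was named here after its values were seen. It had the largest shift of the 6 tested genes in a list of stem and progenitor surface markers that includes Kit and Thy1. It read 8.99 and 8.01 in Nol3-/- MPN against 6.42 and 7.76 in Nol3+/+, with no overlap (log2 difference 1.41, SE 0.56, limma adjusted p = 0.841). Of 11 tested markers of mature granulocytes and monocytes, 9 were lower and 2 higher in Nol3-/- MPN, against 8025 lower and 8600 higher over all genes tested. Their array medians were 5.90 and 5.82 in Nol3-/- MPN against 6.27 and 6.38 in Nol3+/+. The 2 higher ones included Adgre1, at 5.90 and 5.88 in Nol3-/- MPN against 5.49 and 5.56 in Nol3+/+. At an unadjusted limma p under 0.05 there were 3, or 27.3%, against 5.8% of all genes tested. These were Adgre1 and the lower S100a8 and S100a9. S100a8 read 6.60 and 6.58 in Nol3-/- MPN against 7.03 and 7.88 in Nol3+/+. S100a9 read 8.41 and 8.26 in Nol3-/- MPN against 8.93 and 9.40 in Nol3+/+. Groups did not overlap for 7 of the 11, 6 lower and 1 higher, or 63.6% against 35.5% of all genes tested. Of 4 list genes too dim to test, Ly6g alone had no overlap. It was higher, at 4.96 and 5.38 in Nol3-/- MPN against 4.43 and 4.24 in Nol3+/+. All 6 tested B cell markers were higher in Nol3-/- MPN, Cd22 by only 0.0002, with array medians of 5.55 and 5.75 against 5.59 and 5.56 in Nol3+/+, which overlap. Of 2 B cell markers too dim to test, Ms4a1 overlapped. Vpreb1 was lower without overlap, at 4.26 and 4.45 in Nol3-/- MPN against 4.65 and 4.50 in Nol3+/+. Of the tested T and NK cell markers, 5 were higher and 4 lower. The erythroid and the megakaryocyte lists each had 3 higher and 4 lower. In the T and NK, erythroid and megakaryocyte lists, groups did not overlap for 66.7%, 57.1% and 42.9%, against 35.5% of all genes tested. Nkg7 (log2 difference 0.86) and Pf4 (0.59) were the genes of these lists at an unadjusted limma p under 0.05. That was 11.1% of the T and NK list and 14.3% of the megakaryocyte list, against 5.8% of all genes tested. The Nol3+/+ mean of Pf4, 4.74, lay under the limit for dim genes. The part of these shifts in the values below was not tested, and in sorted cells measured in bulk a change in the share of a cell type cannot be told apart from a change in RNA per cell.

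The kinases are taken first. Jak2 read 7.86 and 7.45 in the Nol3-/- MPN arrays against 7.19 and 7.60 in the Nol3+/+ arrays. The highest reading was in Nol3-/- MPN and the lowest in Nol3+/+, but the groups overlapped, since Nol3+/+ replicate 2 exceeded Nol3-/- MPN replicate 2. Jak2 thus differed by 0.26 log2 units (SE 0.28, limma adjusted p = 0.918). The 95% interval ran from -0.44 to 0.96, which is 0.735-fold to 1.94-fold.

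Jak1, the kinase shared by interferon, gp130 and common gamma chain receptors, read 8.41 and 8.69 in Nol3-/- MPN against 8.56 and 8.65 in Nol3+/+. Both Nol3+/+ values fell between the 2 Nol3-/- MPN values. Jak1 differed by -0.06 (SE 0.23, limma adjusted p = 0.986), and its interval from -0.63 to 0.52 corresponds to 0.647-fold to 1.43-fold. Tyk2, the partner of Jak1 at the type I interferon receptor, read 5.22 and 5.09 in Nol3-/- MPN against 5.43 and 5.06 in Nol3+/+. Here both Nol3-/- MPN values fell between the 2 Nol3+/+ values. Tyk2 differed by -0.09 (SE 0.17, limma adjusted p = 0.959), with an interval from -0.52 to 0.34.

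**Figure D1:**
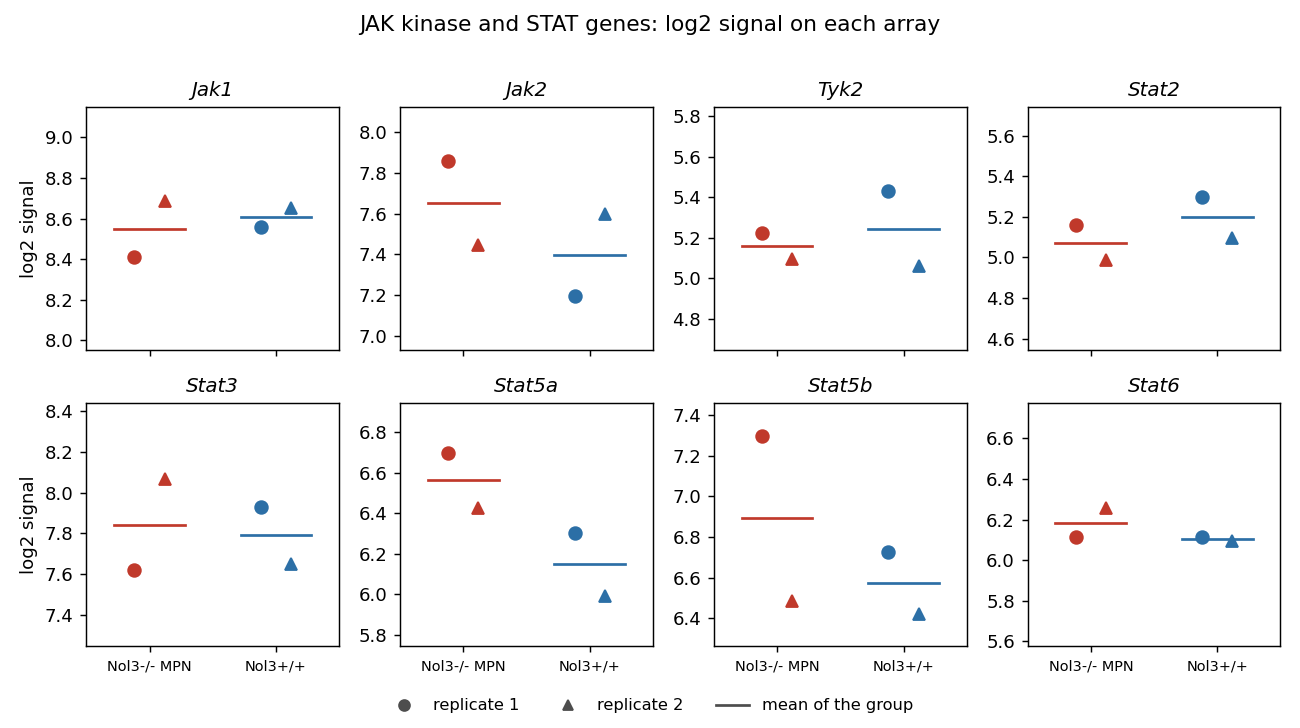
Log2 signal of the 8 JAK and STAT genes on each array, with Nol3-/- MPN on the left and Nol3+/+ on the right of each panel. Circles are replicate 1, triangles replicate 2 and lines the group means, and every panel spans the same number of log2 units. Stat5a is the gene whose groups do not overlap, and the Stat5b readings of Nol3-/- MPN are 0.82 log2 units apart.

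Among the STAT genes, Stat5a was the only one of the 8 whose groups did not overlap. It read 6.70 and 6.43 in Nol3-/- MPN against 6.30 and 5.99 in Nol3+/+. The lower Nol3-/- MPN array lay 0.12 log2 units above the higher Nol3+/+ array. The log2 difference of the group means was 0.41 (SE 0.21). The arrays of a group were 0.27 apart in Nol3-/- MPN and 0.31 apart in Nol3+/+. With 2 arrays per group, a difference above both gaps always comes with no overlap, so it is no further support. Stat5a missed the threshold (limma adjusted p = 0.841), and its interval ran from -0.12 to 0.95, or 0.921-fold to 1.93-fold. Groups without overlap were found for 35.5% of all genes tested, and for 19.7% with Nol3-/- MPN on the higher side, against 12.5% of the 8 genes, so the count of 1 is not above the background. By size, the absolute difference of Stat5a exceeded that of 86.8% of all genes tested.

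Stat5b, whose protein closely resembles that of Stat5a, read 7.30 and 6.48 in Nol3-/- MPN against 6.73 and 6.42 in Nol3+/+. Nol3-/- MPN replicate 1 alone was high, and Nol3-/- MPN replicate 2 lay between the Nol3+/+ arrays. Stat5b differed by 0.32 (SE 0.33, limma adjusted p = 0.917). The interval, from -0.51 to 1.15, reached 2.22-fold and was the only one of the 8 that did not exclude a 2-fold difference. The 2 Nol3-/- MPN arrays were 0.82 log2 units apart for Stat5b. Kit was 0.98 apart in the same direction, and the part of that gap in the Stat5b reading was not tested. In the RefSeq annotation of GRCm38.p6, Stat5b, Stat5a and Stat3 follow one another on chromosome 11 with no other protein-coding gene starting between them. How well the probes separate Stat5a from Stat5b transcripts is not given in the sources used here.

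Stat3, the factor of gp130 cytokines and of the granulocyte colony-stimulating factor receptor, read 7.62 and 8.07 in Nol3-/- MPN against 7.93 and 7.65 in Nol3+/+. The Nol3-/- MPN arrays held both the lowest and the highest value. Stat3 differed by 0.05 (SE 0.27, limma adjusted p = 0.993), with an interval from -0.63 to 0.73. Its neighbours Stat5a and Stat5b were higher in Nol3-/- MPN replicate 1 than in replicate 2, whereas Stat3 was lower there.

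Stat6, which carries the signal of interleukin-4 and interleukin-13, varied least. It read 6.11 and 6.25 in Nol3-/- MPN against 6.12 and 6.10 in Nol3+/+, a range of 0.16 log2 units over the 4 arrays. Stat6 differed by 0.08 (SE 0.16, limma adjusted p = 0.963), and the interval from -0.33 to 0.49 corresponds to 0.796-fold to 1.40-fold. Stat2, which joins Irf9 in the interferon-stimulated factor ISGF3, read 5.16 and 4.99 in Nol3-/- MPN against 5.30 and 5.10 in Nol3+/+. Its values came closest of the 8 to the limit for dim genes, a mean log2 signal of 4.835, and the groups overlapped. Stat2 differed by -0.13 (SE 0.14, limma adjusted p = 0.927), with an interval from -0.49 to 0.24, or 0.712-fold to 1.18-fold.

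**Figure D2:**
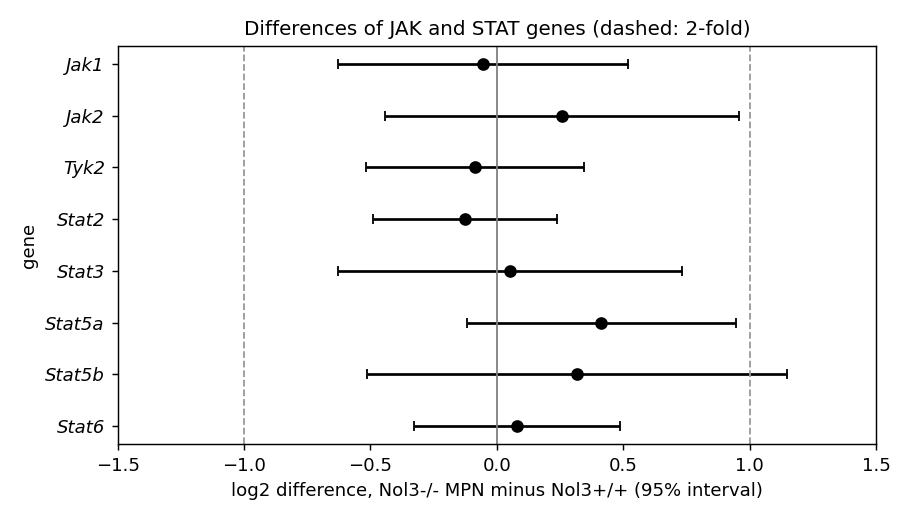
Log2 difference of each gene, Nol3-/- MPN minus Nol3+/+, with its 95% interval from the limma fit. The solid line marks no difference and the dashed lines 2-fold in either direction. All 8 intervals include 0, and that of Stat5b alone crosses a dashed line.

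The intervals set how large a difference these arrays could have missed. For 7 of the 8 genes the interval lay inside 2-fold in either direction, and for Tyk2, Stat2 and Stat6 it lay inside 1.5-fold. Every interval includes 0, so a difference of any size inside it could have been missed for that gene. The 8 genes did not rank the arrays alike. Jak2, Stat5a and Stat5b were highest in Nol3-/- MPN replicate 1, Jak1, Stat3 and Stat6 in Nol3-/- MPN replicate 2, and Tyk2 and Stat2 in Nol3+/+ replicate 1. The lowest reading was in Nol3+/+ replicate 2 for Tyk2, Stat5a, Stat5b and Stat6 and in Nol3+/+ replicate 1 for Jak2. It was in Nol3-/- MPN replicate 1 for Jak1 and Stat3 and in Nol3-/- MPN replicate 2 for Stat2. Over the 8 genes the median SD of the 2 arrays was 0.19 in Nol3-/- MPN and 0.21 in Nol3+/+, against 0.13 and 0.14 over all genes tested.

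Single arrays decided several directions. Without Nol3-/- MPN replicate 1 the log2 difference of Stat5b was -0.09, and without Nol3-/- MPN replicate 2 it was 0.73. That of Jak2 was 0.05 without Nol3-/- MPN replicate 1 or without Nol3+/+ replicate 1, and 0.46 without either of the others. Stat3 turned to -0.17 without Nol3-/- MPN replicate 2 and to -0.09 without Nol3+/+ replicate 2. Jak1 turned to 0.08 without Nol3-/- MPN replicate 1, and Tyk2 to 0.10 without Nol3+/+ replicate 1, the array that stood apart. Stat5a stayed between 0.26 and 0.57, Stat6 between 0.01 and 0.15, and Stat2 between -0.23 and -0.02. No gene of the 8 passed the adjusted threshold with any array left out.

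**Figure D3:**
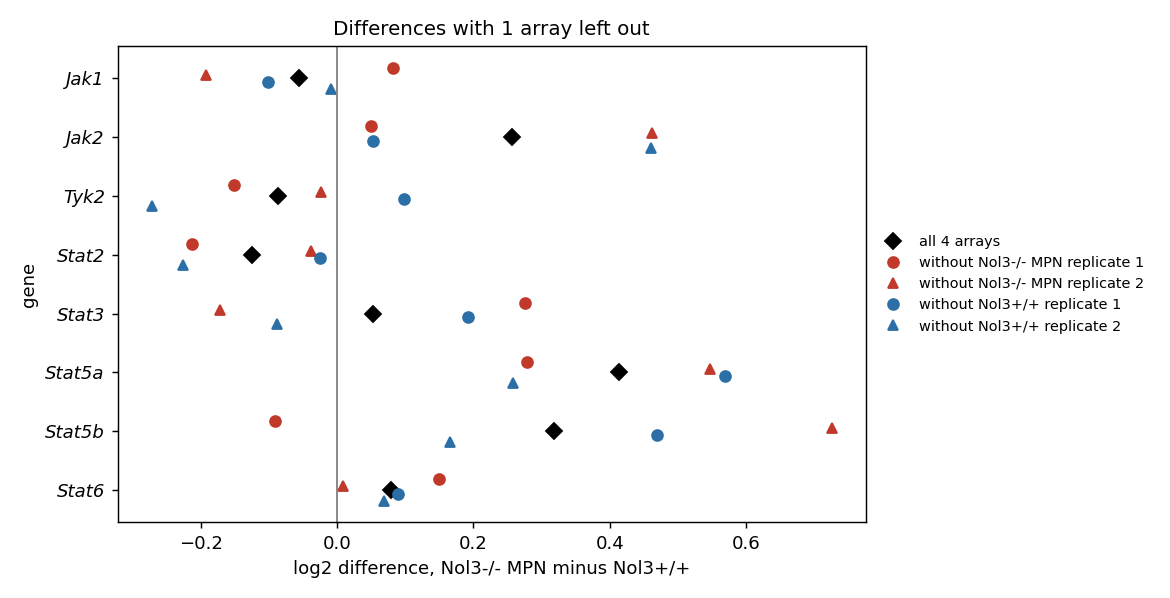
Log2 difference of each gene, Nol3-/- MPN minus Nol3+/+, with all 4 arrays (black diamonds) and with 1 array left out (red, a Nol3-/- MPN array; blue, a Nol3+/+ array; circles replicate 1, triangles replicate 2). Jak1, Tyk2, Stat3 and Stat5b have values on both sides of 0, and Stat5a spans 0.26 to 0.57.

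Stat5b had the widest range of the 8 genes, 0.88 log2 units. The 3 other tested genes with the most similar course over the 4 arrays were Gle1, Mid2 and Surf4, whose centred signals differed from those of Stat5b by a root mean square of 0.04, 0.04 and 0.05 log2 units. Gle1 read 8.41 and 7.66 in Nol3-/- MPN against 7.88 and 7.65 in Nol3+/+. Likeness over 4 arrays describes these arrays only.

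The DNA letters that STAT factors read are shown because STAT target transcripts are the readout of the pathway that these arrays hold. STAT dimers bind the GAS element, searched here as TTCNNNGAA, a pattern that reads the same on both strands. ISGF3 binds the ISRE, searched as GAAANNGAAA on both strands. The windows span 250 bases before to 50 bases after a transcript start (RefSeq, GRCm38.p6). Of 32851 windows, 8.30% held a GAS match and 3.44% an ISRE match. Of 10 windows belonging to the 8 genes, 0 held a GAS match and 1, that of Stat2, held an ISRE match. Of 17 other pathway genes searched, 14 had a window. Among these, Cish, Socs3 and Bcl6 held a GAS match, Socs1, Isg15, Ifit1, Ifit3 and Rsad2 an ISRE match, and Pim1, Bcl2l1, Junb, Il4ra, Irf9 and Oasl1 neither. No match says only that these letters are absent from the window. The stretches below, of Stat2 and 3 of the targets with a match, surround the matches, written 5′ to 3′ on the strand of the gene with the match in capitals. None of the matches overlapped another. In Cish (chr9:107296634-107296688, plus strand) the first match begins at the annotated start and the second 11 bases after it. The others lie before the start, in Socs3 (chr11:117969487-117969545, minus strand), Stat2 (chr10:128270251-128270310, plus strand) and Ifit1 (chr19:34640760-34640838, plus strand).
Cish: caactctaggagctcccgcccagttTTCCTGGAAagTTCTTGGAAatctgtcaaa
Socs3: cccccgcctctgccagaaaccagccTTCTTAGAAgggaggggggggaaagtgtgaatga
Stat2: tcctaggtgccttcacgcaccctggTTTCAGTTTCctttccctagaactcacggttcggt
Ifit1: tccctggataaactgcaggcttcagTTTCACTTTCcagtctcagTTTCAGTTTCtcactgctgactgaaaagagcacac

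None of the target genes shown with these letters passed the test. Cish, a feedback inhibitor induced by Stat5, read 5.36 and 5.18 in Nol3-/- MPN against 5.59 and 5.04 in Nol3+/+. Both Nol3-/- MPN values lay between the Nol3+/+ values (log2 difference -0.05, SE 0.22, limma adjusted p = 0.989). Socs3, the feedback inhibitor of Stat3 signalling, read 5.51 and 5.76 in Nol3-/- MPN against 5.90 and 5.68 in Nol3+/+, and the groups overlapped (log2 difference -0.15, SE 0.17, limma adjusted p = 0.920). Ifit1, an antiviral gene induced through ISGF3, read 8.13 and 8.21 in Nol3-/- MPN against 8.20 and 7.93 in Nol3+/+ (log2 difference 0.11, SE 0.23, limma adjusted p = 0.965).

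The wider pathway was read from lists of receptors, ligands, regulators and targets. Of 137 such genes, 131 had a row with 1 symbol and 107 were bright enough to test, 60 of them higher and 47 lower in Nol3-/- MPN, with a median log2 difference of 0.04 against 0.01 over all genes tested. None of the 107 passed the adjusted threshold. At an unadjusted p under 0.05 there were 7, 4 higher and 3 lower, which is 6.54% against 5.8% of all genes tested. Groups did not overlap for 34, or 31.8%, against 35.5% of all genes tested. Both shares lie near the background.

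Among the receptors, 25 genes were tested in 5 lists, and the list medians lay between -0.04 and 0.11. With 1 array left out, the medians ran from -0.13 to 0.16 for the gp130 family, from -0.10 to 0.04 for the common gamma chain list and from -0.09 to 0.18 for the interferon and interleukin-10 type list, in each case lowest without Nol3+/+ replicate 2. For the common beta chain list, leaving out Nol3+/+ replicate 1 gave 0.05 and leaving out Nol3+/+ replicate 2 gave 0.16. The erythropoietin receptor gene Epor read 5.83 and 5.81 in Nol3-/- MPN against 5.92 and 5.79 in Nol3+/+. Csf3r, the receptor of granulocyte colony-stimulating factor, read 5.98 and 6.13 in Nol3-/- MPN against 5.80 and 5.93 in Nol3+/+. Csf2rb, the shared chain of the interleukin-3, interleukin-5 and GM-CSF receptors, read 6.51 and 6.54 in Nol3-/- MPN against 5.82 and 6.36 in Nol3+/+. Its groups did not overlap, with Nol3+/+ replicate 1 the low array (log2 difference 0.43, SE 0.23, limma adjusted p = 0.842). The interleukin-3 receptor gene Il3ra and the gp130 gene Il6st differed by 0.11 and 0.13, and the interferon receptor genes Ifnar1 and Ifngr1 by 0.14 and -0.02. Il4ra, the interleukin-4 receptor chain that recruits Stat6, was the one receptor at an unadjusted p under 0.05. It read 6.20 and 5.99 in Nol3-/- MPN against 5.48 and 5.78 in Nol3+/+ (log2 difference 0.46, SE 0.18, interval from 0.01 to 0.92, limma adjusted p = 0.841). Il2rg was not analysed here.

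Of the ligands, 9 of 16 tested genes were higher and 7 lower, with a median of 0.04, which was -0.0022 without Nol3-/- MPN replicate 2 and 0.0082 without Nol3+/+ replicate 1. Lif, a gp130 cytokine, read 5.31 and 5.53 in Nol3-/- MPN against 5.93 and 5.73 in Nol3+/+, and Osm, a related cytokine and Stat5 target, read 5.14 and 5.10 in Nol3-/- MPN against 5.39 and 5.27 in Nol3+/+. The groups did not overlap for either gene, and Lif alone reached an unadjusted p under 0.05. The limma adjusted p was 0.841 for Lif and 0.855 for Osm.

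Among the inhibitors and phosphatases, 10 of 18 tested genes were higher and 8 lower, with a median of 0.02, which ran from -0.0090 without Nol3-/- MPN replicate 2 to 0.058 without Nol3+/+ replicate 1. Socs2 differed by 0.00, Sh2b3, the adaptor that restrains Jak2, by -0.03, and the phosphatase gene Ptpn6 by -0.13. Socs1 read 4.19 and 4.32 in Nol3-/- MPN against 4.69 and 4.18 in Nol3+/+, too dim to test. Cbl, a ubiquitin ligase that removes activated receptors, read 6.30 and 6.32 in Nol3-/- MPN against 5.70 and 5.58 in Nol3+/+ (log2 difference 0.67, SE 0.15, limma adjusted p = 0.841) and was the 1 gene of its list at an unadjusted p under 0.05. In the list of 8 adaptors and positive regulators, 5 were higher and the median was 0.18. That median was 0.011 without Nol3-/- MPN replicate 1, 0.012 without Nol3-/- MPN replicate 2 and 0.073 without Nol3+/+ replicate 1. Ptpn11, a phosphatase that promotes signalling, read 5.44 and 5.31 in Nol3-/- MPN against 4.87 and 4.77 in Nol3+/+. Its log2 difference was 0.56 (SE 0.13, limma adjusted p = 0.841). Ptpn11 was likewise the 1 gene of its list at an unadjusted p under 0.05. The Nol3+/+ mean of Ptpn11, 4.82, lay under the limit for dim genes. The gene was tested because its mean over all arrays, 5.10, lay above that limit. Irf9, the DNA-binding partner of Stat2, read 5.94 and 6.37 in Nol3-/- MPN against 5.79 and 6.04 in Nol3+/+ (log2 difference 0.24, SE 0.21).

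Targets of the STAT factors were split in direction. Of 18 tested Stat5 targets, 9 were higher and 9 lower in Nol3-/- MPN, with a median of -0.02, which was 0.06 without Nol3+/+ replicate 1, 0.04 without Nol3-/- MPN replicate 2 and -0.09 without Nol3+/+ replicate 2. The kinase gene Pim1 differed by 0.08 and the survival gene Bcl2l1 by -0.07. Cdk6, a cell cycle kinase, read 9.13 and 8.94 in Nol3-/- MPN against 7.80 and 8.39 in Nol3+/+ and was the 1 gene of the list at an unadjusted p under 0.05 (log2 difference 0.94, SE 0.28, limma adjusted p = 0.841). Of 13 tested Stat3 targets, 6 were higher and 7 lower, with a median of -0.10, which was -0.05 without Nol3+/+ replicate 1, -0.06 without Nol3-/- MPN replicate 1 and -0.16 without Nol3+/+ replicate 2. Over all genes tested, 5.8% had an unadjusted p under 0.05, and 344 of those 965 genes were lower in Nol3-/- MPN. Among the 13 Stat3 targets there were 2, or 15.4%, both lower in Nol3-/- MPN. These were the transcription factor genes Fos and Cebpb, which read lower in both Nol3-/- MPN arrays, at 5.57 and 5.61 against 6.21 and 5.98 in Nol3+/+ for Fos, and at 4.92 and 4.85 against 5.34 and 5.37 in Nol3+/+ for Cebpb (limma adjusted p = 0.841 for each). Junb, another factor of that list, differed by -0.32.

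Of 13 tested ISGF3 targets other than Stat2, 9 were higher and 4 lower in Nol3-/- MPN, with a median of 0.11, which was 0.02 without Nol3-/- MPN replicate 2. None of them reached an unadjusted p under 0.05. Isg15 read 4.49 and 3.90 in Nol3-/- MPN against 4.10 and 3.93 in Nol3+/+, below the limit for dim genes. Of 10 tested Stat6 targets, 3 were higher and 7 lower, with a median of -0.12, which was -0.05 without Nol3-/- MPN replicate 2. Il4ra, described above, was the 1 member at an unadjusted p under 0.05.

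**Figure D4:**
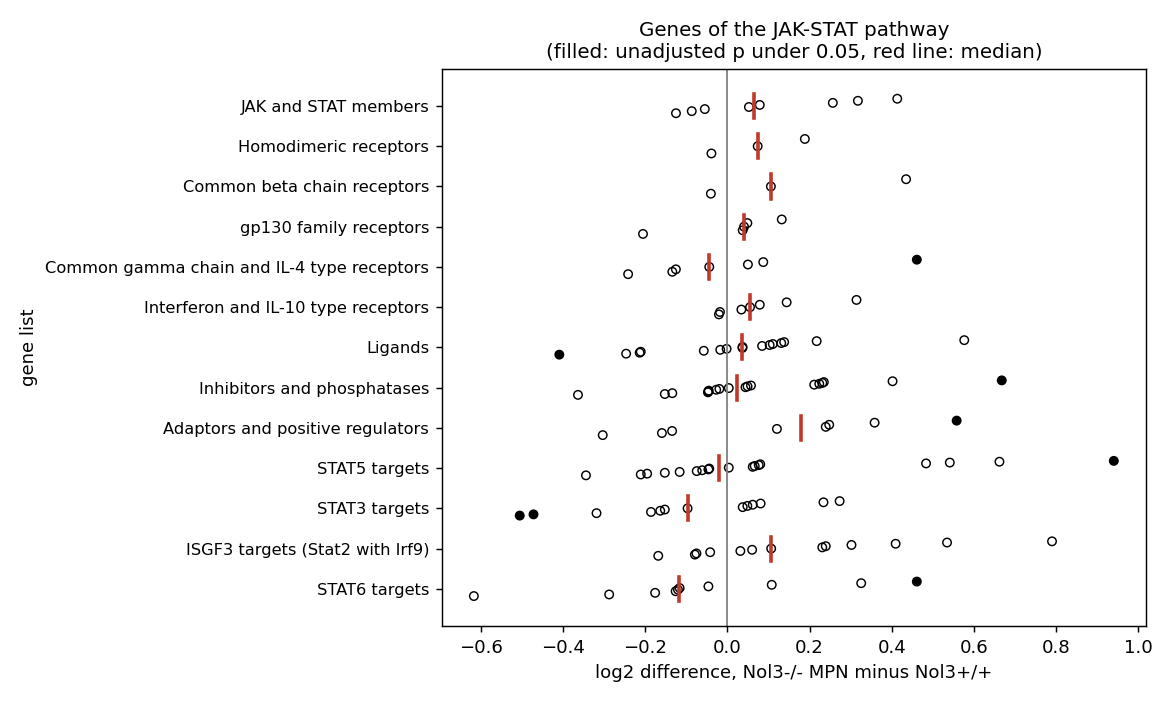
Log2 difference, Nol3-/- MPN minus Nol3+/+, of every tested gene of the pathway lists, 1 circle per gene, with the 8 JAK and STAT genes in the top row. Filled circles have an unadjusted p under 0.05 and red lines are list medians. All medians lie between -0.12 and 0.18, and a gene in 2 lists is drawn in both.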

How the data were processed

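Expression was measured in 2 Nol3-/- MPN and 2 Nol3+/+ samples on whole-transcript arrays. Per the labels' protocols, isothermal amplification preceded biotin labelling of the RNA. The authors deposited normalized values, taken here as log2 signals because they run from 2.84 to 13.5. The base is not stated. The submitters' processing notes name Affymetrix Expression Console and Transcriptome Analysis Console, and the normalization is not given in the sources used here. Platform annotation gave 1 symbol to 23521 of 41345 rows, 1814 had several and 16010 none. Where a gene had several rows (1082 genes), the brightest on average was kept. Genes with a mean under the 25th percentile, 4.835, were left out, leaving 16635. Nol3-/- MPN was tested against Nol3+/+ by limma 3.58.1 (R 4.3.3, lmFit, eBayes with a variance trend, 2 residual and 3.19 prior degrees of freedom), with Benjamini-Hochberg adjustment over all genes tested. The script was tested on simulated data. The named genes were the 8 members with a row, list genes at an unadjusted p under 0.05, 23 set pathway genes, the sort markers Kit, Ly6a and Thy1, and the 3 genes nearest Stat5b in pattern. Ly6a had no row with 1 symbol. Members and lists were chosen with earlier results of these data known. Same-numbered arrays of the groups did not deviate together (r = 0.05). The number of arrays limits the precision.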

Additional observations from a re-analysis of the deposited data

How the results depend on the processing

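The fit was repeated under 9 alternatives that kept all arrays (the replicate block, other variance models, array weights, quantile normalization, other limits for dim genes, the mean of a gene's rows, and leaving out X- and Y-linked genes). Of the 70 values for the JAK and STAT genes, 0 passed the adjusted threshold. Only quantile normalization changed their log2 differences, and all 8 genes kept their direction under it, with Jak1 moving from -0.055 to -0.014. The other alternatives left each difference as it was, so a kept direction there tests nothing. The stricter limit for dim genes, at the 50th percentile, left out Tyk2 and Stat2. With 1 array left out, 5 of 32 values turned, for Jak1 (-0.19 to 0.082), Tyk2 (-0.27 to 0.10), Stat3 (-0.17 to 0.28) and Stat5b (-0.090 to 0.73). The cause was not tested. The lowest adjusted p over all alternatives was 0.617. With the replicate number as a block, Stat5a differed by 0.41 (limma adjusted p = 0.832) and 0 genes passed over all genes tested, against 4 without it. The count was also 0 with the ordinary variance per gene and without X- and Y-linked genes, and ran from 0 to 39 with 1 array left out. Genes at an unadjusted p under 0.05 then ran from 572 to 1894, against 965. Of 48 pathway list medians with 1 array left out, 14 moved by more than the spread between arrays.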
